A study of Arabidopsis thaliana with 36 samples.

Results

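Serine carboxypeptidases are enzymes of the secretory pathway, many of them found in the vacuole or the cell wall, that remove amino acids from the C-terminal end of proteins with a catalytic triad of serine, aspartate and histidine. Plants carry a large family of serine carboxypeptidase-like (SCPL) genes, and some of its proteins act as acyltransferases: they move an acyl group from a glucose ester onto another molecule, as SNG1 and SNG2 do in the synthesis of sinapate esters in Arabidopsis. Another, BRS1, is tied to signalling through the brassinosteroid receptor BRI1. Developing xylem vessels die and digest their own contents with hydrolases that the vacuole releases.

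The 10 SCPL genes described here were measured on Arabidopsis ATH1 arrays, on which a probe set is a group of short probes for 1 transcript. They were taken from 29 probe sets that name 1 SCPL gene each, among 22810 probe sets in all, and were chosen by their mean intensity over all 36 arrays, as the 10 with the highest means. That mean used every array and no contrast between groups, and it is given here as a description. It ran from 565 for SCPL49 (AT3G10410), which RefSeq also names carboxypeptidase Y, a vacuolar enzyme in yeast, through 313 for SCPL48 (AT3G45010), 244 for SCPL31 (AT1G11080) and 197 each for SCPL30 (AT4G15100) and SCPL29 (AT4G30810). The lower means belonged to SCPL45 (AT1G28110), SCPL20 (AT4G12910), SCPL26 (AT2G35780) and SCPL50 (AT1G15000), and SCPL25 (AT3G02110) was just inside at 47.4, with SCPL35 (AT5G08260) just outside at 44.9. Apart from SCPL49, no role in the plant is assigned here to these genes. All 10 passed the filter on low values, as did 7 of the other 19 SCPL probe sets, and 2 probe sets that name several genes were not used. SCPL26 lies next to SCPL28 in the TAIR10.1 gene order, and the SCPL28 probe set stayed under 16, near the background, on all 36 arrays.

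The study concerned dormancy and secondary growth, the thickening of the hypocotyl in which a cambium lays down xylem inwards and phloem outwards. There were 12 groups of 3 arrays. Xylem and cork were sampled separately from Col-0, from a MYB61 knockout and from a MYB50 knockout, which lack MYB transcription factors. Hypocotyls were sampled from Ler, from abi1 and aba1 in Ler, from Col-0, and from max4 and axr1. ABI1 is a protein phosphatase that damps signalling by abscisic acid, ABA1 an enzyme of abscisic acid synthesis, MAX4 an enzyme of strigolactone synthesis and AXR1 a part of the machinery through which auxin acts. The abi1 line is insensitive to abscisic acid, and the aba1 line is deficient in it. All seeds were stratified for 2 days at 4 °C and all plants grew at 22 °C with 24 h light, and each RNA came from 200 to 400 pooled plants, so the replicate spread is that between pooled samples. The labels give no allele and no plant age, and for the knockouts, max4 and axr1 no background accession.

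Array medians lay between 35.1 and 44.9 and scanner background between 64.2 and 132. The actin 3′ to 5′ ratio, which rises as RNA degrades, ran from 1.07 to 2.11. It differed between groups, with means of 1.22 in Col-0 xylem, 1.54 in Col-0 cork, 1.37 in MYB50 knockout xylem and 1.76 in MYB50 knockout cork, and its part in the SCPL differences was not tested. No probe set named MYB61, MYB50 or the 4 other mutated genes, so the genotypes were not checked. In the MYB50 knockout cork group replicate 1 is labelled a repeat, and MYB61 knockout cork replicate 1 had an array weight of 0.218, the lowest of all. The tissue labels were checked against markers: of 17 xylem markers 3 were measured (GUT2, IRX15 and IRX15-L, of xylan synthesis), and all 3 were higher in xylem in the mean over the 3 genotypes. In Col-0 alone GUT2 and IRX15 were called, but IRX15 ran from 5.6 to 94.1 over the xylem arrays, and IRX15-L was not called (55.1 against 36.1, limma adjusted p = 0.0962). The 1 measured suberin marker, FACT, was 18.2 ± 3.92 in Col-0 xylem and 114 ± 6.06 in Col-0 cork (SD, n = 3). The 4 measured photosynthetic markers were lower in xylem than in cork of Col-0, as were 3 of the 4 phloem markers (OPS adjusted p = 0.194). The summed phloem markers were 102 to 110.4 in Col-0 xylem and 538 to 548 in Col-0 cork. In such bulk samples fewer cells of a type and less RNA per cell cannot be told apart.

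The SCPL genes differed in how far their group means spanned, SCPL49 and SCPL29 the least. The group means of SCPL49 ran from 492 in axr1 to 666 in abi1 hypocotyls, a ratio of 1.35. Each of the 11 neighbouring groups in the order of its levels overlapped the next. Groups farther apart did not always overlap: abi1 arrays (610 to 729) lay above Ler arrays (523 to 549.6). SCPL29 spanned a ratio of 1.71, with 10 of 11 neighbours overlapping, as for SCPL20. The small differences of SCPL29 were still called in several comparisons below, among them both tissues of the MYB50 knockout. SCPL31 had a mean of 918 in Col-0 hypocotyls and lay near the background in MYB50 knockout cork, at 24.2, 10.9 and 15.8, so no ratio is given for it. SCPL30 spanned 33.0 times, from 27.0 in Ler to 892 in Col-0 hypocotyls. The other 6 spanned 3.02 (SCPL20) to 6.57 times (SCPL45). The plot of all intensities shows each array.

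**Figure D1:**
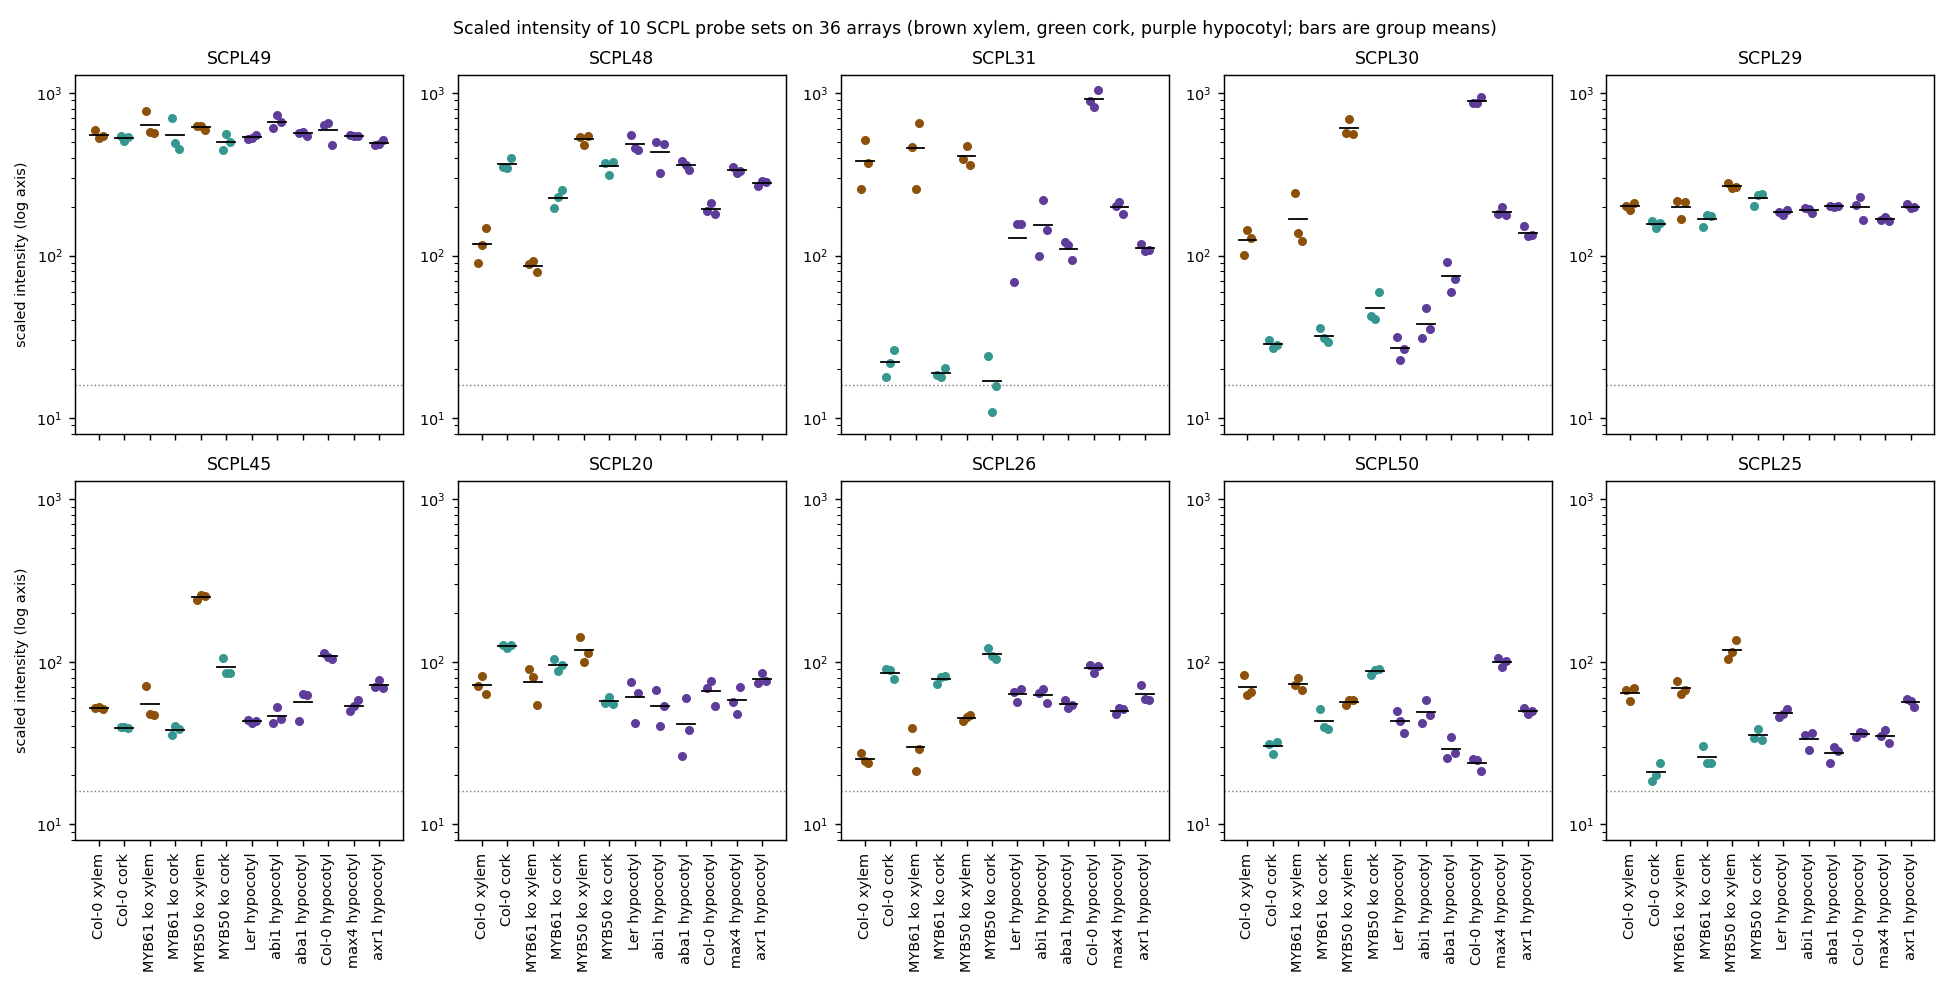
Scaled intensity (log axis) of the 10 SCPL probe sets on 36 arrays, 1 panel per gene; points are arrays, bars are means of 3 arrays, brown is xylem, green is cork and purple is hypocotyl, and the dotted line marks 16. SCPL49 and SCPL29 span least, while SCPL31 runs from 10.9 to 1045 and SCPL30 from 22.6 to 939.8.

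The order of the groups differed from gene to gene. SCPL30 was highest in Col-0 hypocotyls and next in MYB50 knockout xylem, and neither group overlapped its neighbour. Below these, SCPL30 in max4, MYB61 knockout xylem, axr1 and Col-0 xylem overlapped in turn. Then came a gap before aba1, MYB50 knockout cork, abi1, the other cork groups and Ler, which also overlapped in turn. SCPL31 was highest in Col-0 hypocotyls too, followed by the 3 xylem groups, which overlapped. Then came the 5 other hypocotyl groups, which overlapped in turn, although max4 lay above all Ler, axr1 and aba1 arrays. The 3 cork groups came last. SCPL45 was highest in MYB50 knockout xylem, apart from all others, with Col-0 hypocotyls and MYB50 knockout cork next and overlapping. SCPL50 was highest in max4 hypocotyls and second in MYB50 knockout cork, each without overlap with the next, and lowest in Col-0 hypocotyls. SCPL48 was lowest in the xylem of Col-0 and of the MYB61 knockout, which overlapped, and highest in MYB50 knockout xylem, which overlapped with Ler hypocotyls.

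In Col-0, the levels of most SCPL genes differed between xylem and cork. SCPL31, SCPL30, SCPL25 and SCPL50 were higher in xylem, and so, by less, were SCPL29 and SCPL45. SCPL26, SCPL48 and SCPL20 were higher in cork, and SCPL49 was at 553 ± 32.8 and 530.5 ± 21.6 in the 2 tissues (SD, n = 3). A gene is counted here as changed at a limma adjusted p under 0.05, over 15924 probe sets. By that rule 9 of 10 genes differed, 6 higher and 3 lower in xylem, where 40.2% of all probe sets differed (19.8% higher and 20.4% lower). The median log2 difference was 0.31 over the 10 genes and 0.02 over all probe sets. Differences are on the log2(intensity + 16) scale, which understates changes of dim genes. The 10 genes were chosen as bright: 51.1% (SCPL25) to 95.9% (SCPL49) of probe sets other than controls had lower means. The shares over all 15924 probe sets here and below include dimmer ones, and the part of brightness in the counts was not tested.

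SCPL31 read 256, 511.5 and 370 on the Col-0 xylem arrays and 17.8, 21.9 and 26.3 on the cork arrays. Its xylem arrays were all far above its cork arrays, which sat near the background. The ratio of means was 17.2, with a log2 difference of 3.33 (SE 0.26, limma adjusted p = 4.06e-12).

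SCPL30 read 100.3, 143 and 128 in Col-0 xylem and 30.2, 27.0 and 28.2 in cork. The groups did not overlap, and xylem was 4.35-fold higher (log2 1.64, SE 0.16, limma adjusted p = 5.9e-10). SCPL25 read 66.7, 57.6 and 68.5 in Col-0 xylem and 18.5, 20.2 and 23.9 in cork. Its xylem was 3.08-fold higher, also without overlap (log2 1.12, SE 0.10, limma adjusted p = 2.18e-11).

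SCPL48 went the other way: 90.3, 116 and 147 in Col-0 xylem against 348, 347 and 398 in cork. Every cork array exceeded every xylem array, by 3.09-fold in the means (log2 -1.53, SE 0.13, limma adjusted p = 2.87e-11). SCPL26 read 27.6, 24.5 and 23.9 in Col-0 xylem and 90.2, 89.1 and 78.1 in cork, 3.39-fold higher in cork (log2 -1.30, SE 0.10, limma adjusted p = 3.59e-12).

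SCPL50, at 83.5, 62.1 and 64.9 in Col-0 xylem and 31.3, 27.0 and 32.1 in cork, was 2.33-fold higher in xylem (limma adjusted p = 2.26e-08). SCPL20 was 71.9 ± 9.11 in Col-0 xylem and 125 ± 3.33 in cork (SD, n = 3), 1.74-fold higher in cork (limma adjusted p = 0.00243). SCPL29 was 1.28-fold higher in xylem (limma adjusted p = 0.00501), a call that was lost with scanner background in the model (adjusted p = 0.071). SCPL45 was 1.32-fold higher there (limma adjusted p = 0.0248), and without any 1 of 5 of the 6 arrays its adjusted p lay between 0.0524 and 0.0615.

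Averaged over Col-0 and both knockouts, 7 genes were higher in xylem and 2 lower, beside 55.5% of all probe sets called (27.6% higher and 27.9% lower). The median log2 difference was 0.29 for the SCPL genes and 0.01 for all. SCPL31 (log2 3.57), SCPL30 (2.27), SCPL25 (1.17) and SCPL26 (-1.14) separated the 9 xylem arrays from the 9 cork arrays without overlap. SCPL45 (log2 0.66), SCPL50 (0.33), SCPL29 (0.26) and SCPL48 (-0.74) were called too, with limma adjusted p from 6.43e-11 to 0.000105, but their arrays overlapped. The mean hides opposite orders in the MYB50 knockout. There SCPL50 was 56.9 ± 2.40 in xylem and 87.7 ± 4.20 in cork, SCPL48 averaged 521 and 353, and SCPL20 118 ± 21.9 and 57.3 ± 3.19 (SD, n = 3). SCPL20 was not called in the mean (log2 -0.05, SE 0.10, limma adjusted p = 0.727), although it was called in the Col-0 comparison. SCPL49, at log2 0.19 (limma adjusted p = 0.0212), lost its call without MYB61 knockout xylem replicate 1, MYB61 knockout cork replicate 3 or MYB50 knockout cork replicate 1. The plot of tissue differences sets both estimates side by side.

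**Figure D2:**
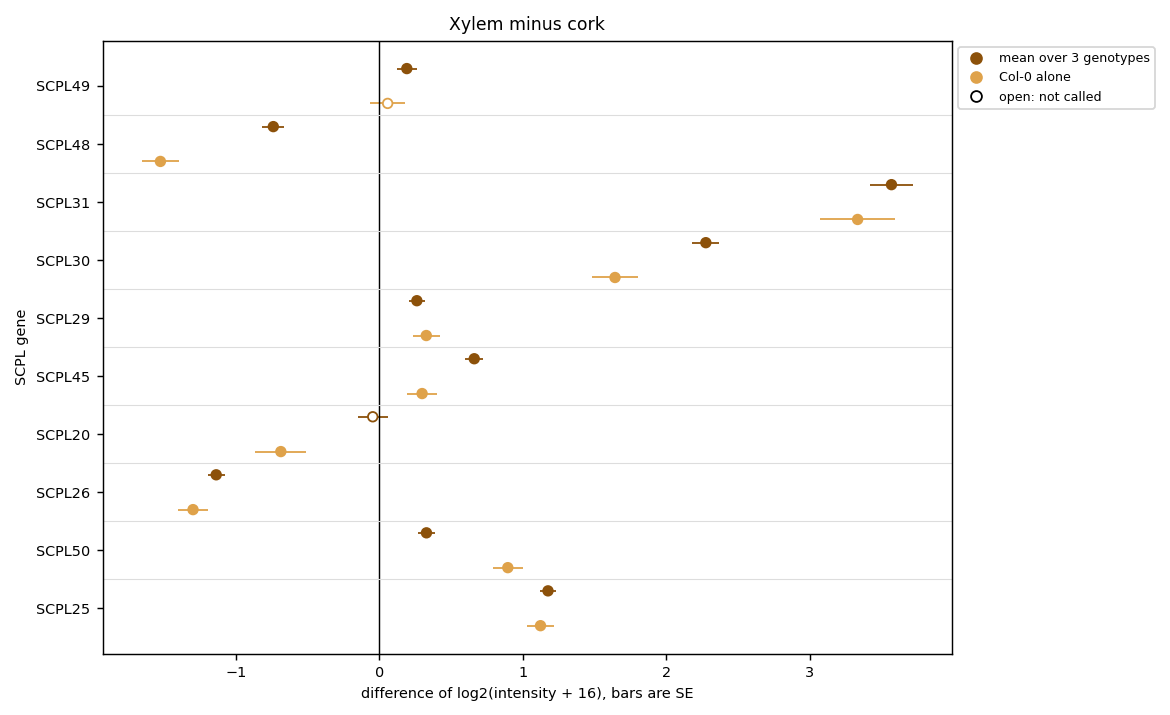
Xylem minus cork difference of log2(intensity + 16) for each SCPL gene, as the mean over 3 genotypes and in Col-0 alone; bars are SE and open points did not pass an adjusted p of 0.05. SCPL31 and SCPL30 lie farthest to the right, at 3.57 and 2.27 in the mean, and SCPL26 and SCPL48 lie to the left.

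MYB50 is a MYB factor, and its knockout was set beside Col-0 in each tissue. In xylem SCPL30, SCPL48 and SCPL45 rose more than 4-fold, and SCPL25, SCPL20, SCPL26 and SCPL29 rose by less. None of the 10 fell. The 7 genes that rose stand beside 44.6% of all probe sets called, 20.4% higher and 24.2% lower, and the SCPL median was log2 0.59 against -0.02 for all probe sets. With quantile normalization SCPL50 was also called, as lower, giving 7 higher and 1 lower. It was also called without Col-0 xylem replicate 2 (log2 -0.30, adjusted p = 0.0399).

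SCPL45 read 52.1, 52.7 and 51.2 in Col-0 xylem and 239, 259 and 255 in MYB50 knockout xylem. Both groups were tight and far apart. The knockout mean was 4.82-fold higher (log2 1.97, SE 0.11, limma adjusted p = 5.94e-15).

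SCPL30 rose from 100.3, 143 and 128 in Col-0 xylem to 568, 689 and 561 in the knockout. No array of either group came near the other, and the ratio of means was 4.89 (log2 2.16, SE 0.16, limma adjusted p = 4.62e-12). SCPL48 rose from 90.3, 116 and 147 to 539, 476 and 547.5, a ratio of 4.42 (log2 2.02, SE 0.13, limma adjusted p = 2.13e-13). In MYB50 knockout cork SCPL48 read 371, 313 and 376, all below the knockout xylem arrays, where in Col-0 the cork arrays were the higher ones. That knockout difference was not tested on its own.

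SCPL25 rose from 64.3 ± 5.84 to 118 ± 15.8 (SD, n = 3), SCPL26 from 25.3 ± 1.99 to 45.2 ± 2.01, and SCPL29 from 200.6 to 267 ± 9.22, with limma adjusted p of 2.14e-07, 3.38e-05 and 0.00094. SCPL20, at 71.4, 81.2 and 63.0 in Col-0 xylem and 142.5, 99.6 and 113 in the knockout, had its highest array in replicate 1. Its log2 difference of 0.61 (limma adjusted p = 0.00629) was 0.48 without that array (adjusted p = 0.0533). SCPL31 was at 379 ± 128 and 408 ± 57.5 (limma adjusted p = 0.691), SCPL49 at 553 ± 32.8 and 615 ± 21.1 (0.332) and SCPL50 at 70.2 ± 11.6 and 56.9 ± 2.40 (0.0701).

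Xylem markers moved with these genes. All 3 measured xylan genes were higher in MYB50 knockout xylem, and their summed level was 997 to 1460.4 there and 121 to 338 in Col-0 xylem. Among the photosynthetic markers 1 of 4 rose, with summed levels of 226 to 298 against 144 to 279, and no phloem marker of 4 was called. Of the cambium markers PHV fell (log2 -0.51) and MOL1 was not called. The part of cell makeup in the SCPL differences was not tested.

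In cork of the MYB50 knockout 6 SCPL genes rose and SCPL20 fell. The 7 calls stand beside 42.2% of all probe sets, 21.3% higher and 20.9% lower. The SCPL median was log2 0.40 and that of all probe sets -0.00. SCPL50 rose most on the log2 scale, and SCPL48, SCPL31 and SCPL49 were not called (limma adjusted p = 0.816, 0.534 and 0.624).

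SCPL50 read 31.3, 27.0 and 32.1 in Col-0 cork and 82.9, 89.3 and 90.8 in the knockout. The groups were far apart, with a ratio of 2.91 (log2 1.17, SE 0.10, limma adjusted p = 1.76e-10). SCPL45 read 39.5, 39.6 and 38.9 in Col-0 cork and 106, 85.7 and 85.3 in the knockout, a ratio of 2.35 without overlap (log2 0.96, SE 0.11, limma adjusted p = 1.17e-08).

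SCPL20 read 127, 121 and 126 in Col-0 cork and 55.8, 61.0 and 55.2 in the knockout. All knockout arrays were below all Col-0 arrays, by 2.18-fold in the means (log2 -0.94, SE 0.18, limma adjusted p = 7.58e-05). SCPL29 and SCPL25 rose 1.44-fold and 1.69-fold (limma adjusted p = 9.01e-05 and 0.000154).

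SCPL30 rose 1.68-fold in cork, from 30.2, 27.0 and 28.2 to 42.4, 40.7 and 60.0 (log2 0.51, limma adjusted p = 0.0119). Without the third knockout array, which was the highest, the adjusted p was 0.0974. SCPL26 rose by less (log2 0.32, limma adjusted p = 0.0117), and its call was lost without Col-0 cork replicate 3 (adjusted p = 0.067) and without MYB50 knockout cork replicate 1, the repeat (adjusted p = 0.0676). Without that array and MYB61 knockout cork replicate 1, 6 of the 10 genes were called in cork. In this tissue 3 of 4 phloem markers, 3 of 4 photosynthetic markers, both cambium markers, IRX15-L and FACT rose. The other phloem marker, the sucrose exporter SWEET11, fell from 109 ± 23.6 to 61.3 ± 4.33 (SD, n = 3). The summed phloem markers, of which CLE41 was the largest, were 1168 to 1299 against 538 to 548 in Col-0, the summed photosynthetic markers 1217 to 1288 against 661 to 864, and FACT was 227 ± 13.5 against 114 ± 6.06 (SD, n = 3). Their part in the SCPL differences was not tested.

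Whether the MYB50 knockout acted unequally in xylem and cork was tested as the difference of its effects. It did so for 5 of the 10 genes, with the xylem effect minus the cork effect positive for 4 and negative for 1, beside 18.2% of all probe sets (8.73% positive and 9.46% negative). SCPL48 rose in xylem and was not called in cork (difference of log2 effects 2.07, SE 0.19, limma adjusted p = 2.3e-09). Both SCPL30 (1.65, SE 0.23, limma adjusted p = 3.66e-06) and SCPL45 (1.01, SE 0.15, limma adjusted p = 1.17e-05) rose in each tissue, and more in xylem. SCPL20 rose in xylem and fell in cork, a difference of 1.55 (SE 0.25, limma adjusted p = 4.46e-05). SCPL50 rose in cork and was not called in xylem, a difference of -1.40 (SE 0.15, limma adjusted p = 4.91e-08). The effects on SCPL25, SCPL26, SCPL29, SCPL31 and SCPL49 were not shown to differ, with limma adjusted p from 0.185 to 0.678. With a pseudocount of 64 SCPL25 was called as well (adjusted p = 0.00945).

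**Figure D3:**
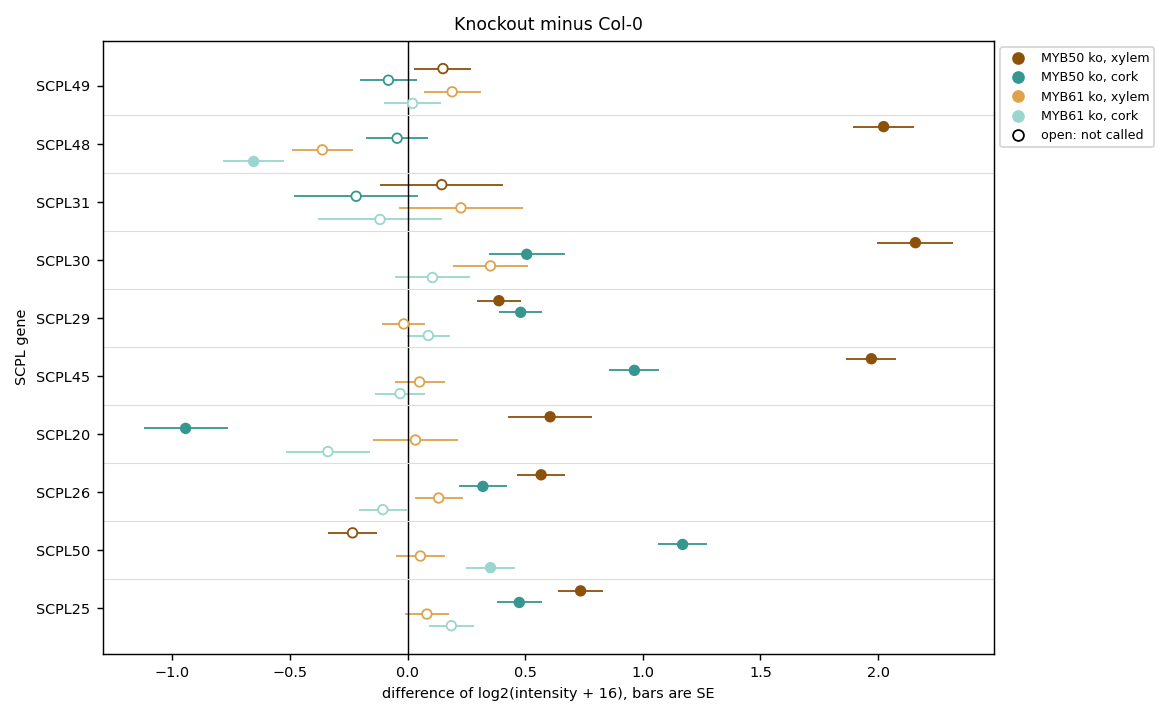
Knockout minus Col-0 difference of log2(intensity + 16) for each SCPL gene in xylem and cork; bars are SE and open points did not pass an adjusted p of 0.05. SCPL48, SCPL30 and SCPL45 lie near 2 in MYB50 knockout xylem, SCPL50 lies at 1.17 in MYB50 knockout cork, and most MYB61 knockout points lie near 0.

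The MYB61 knockout, set against the same Col-0 arrays, gave few SCPL calls. In xylem limma called 0 of 10, with 2 at an unadjusted p under 0.05 and a smallest adjusted p of 0.199, beside 1.88% of all probe sets called (1.22% higher and 0.659% lower). The median log2 difference was 0.07 over the 10 genes and -0.02 over all probe sets. The gene with that p was SCPL48, which read 89.3, 92.0 and 78.8 in the knockout and 90.3, 116 and 147 in Col-0, so that the groups overlapped. Without Col-0 xylem replicate 1, SCPL48 was called as lower (log2 -0.52, limma adjusted p = 0.0334). SCPL30 had 1 knockout array of 244 above all Col-0 arrays, and the others at 137 and 124 lay within their range. SCPL31 and SCPL45, at log2 0.23 and 0.05, had limma adjusted p of 0.828 and 0.933. SCPL49, SCPL29, SCPL20, SCPL26, SCPL50 and SCPL25 differed by log2 -0.02 to 0.19 (limma adjusted p from 0.594 to 0.985). All 10 genes overlapped with Col-0, but the share of all probe sets that did so was not counted. Of the photosynthetic markers LHCB4.2 and ATPC1 were lower, with summed levels of 101 to 129 against 144 to 279 in Col-0.

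In cork SCPL48 fell and SCPL50 rose, 2 of 10 genes beside 8.00% of all probe sets (4.11% lower and 3.89% higher). The medians were log2 -0.01 for the 10 genes and 0.00 for all probe sets. SCPL48 read 348, 347 and 398 in Col-0 cork and 197, 229 and 253 in MYB61 knockout cork. The groups did not overlap, and the knockout was 1.61-fold lower (log2 -0.65, SE 0.13, limma adjusted p = 0.0017). SCPL50, at 51.3, 39.6 and 38.4 against 31.3, 27.0 and 32.1, was 1.43-fold higher (log2 0.35, limma adjusted p = 0.0342). That call was lost without MYB61 knockout cork replicate 1, the array of low weight (log2 0.26, adjusted p = 0.207). It was also lost without any 1 of the Col-0 cork arrays (adjusted p from 0.0527 to 0.141). The other 8 genes lay between log2 -0.34 (SCPL20) and 0.19 (SCPL25), with limma adjusted p from 0.256 to 0.949: SCPL49, SCPL31, SCPL30, SCPL29, SCPL45, SCPL20, SCPL26 and SCPL25. Of the photosynthetic markers 1 of 4, LHCB4.2, was lower (summed levels of 505 to 650 against 661 to 864). FACT was lower in this knockout cork, at 84.0 ± 7.23 against 114 ± 6.06 (SD, n = 3), and the part of these markers in the SCPL differences was not tested. The difference of the MYB61 effects between tissues was called for 0 of 10 by limma, with 0 at an unadjusted p under 0.05, beside 0.113% of all probe sets (0.0816% positive and 0.0314% negative), and the adjusted p of the 10 ran from 0.517 to 0.912.

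In hypocotyls, max4 and axr1 were each set against the same 3 Col-0 arrays, so their differences share that control. Of all groups, Col-0 hypocotyls had the highest means of SCPL30 (892) and SCPL31 (918) and the lowest of SCPL50 (23.8). SCPL30 and SCPL31 fell in both mutants by more than 4-fold, SCPL45 and SCPL26 fell by less, and SCPL48 and SCPL50 rose. Ler hypocotyls, set against the same Col-0 arrays below, differed in the same direction for each of these genes. The part of the shared control in these differences was not tested. In max4 7 of 10 genes were called, 2 higher and 5 lower, beside 44.6% of all probe sets (20.9% higher and 23.7% lower). In axr1 7 were called, 3 higher and 4 lower, beside 36.6% (17.5% higher and 19.2% lower). The SCPL medians were log2 -0.19 and -0.11, those of all probe sets -0.02 and -0.03.

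SCPL30 read 863, 872 and 939.8 in Col-0 hypocotyls, 181, 198 and 178 in max4, and 151, 131 and 133 in axr1. All Col-0 arrays were well above all arrays of both mutants. Max4 was 4.80-fold lower (log2 -2.17, SE 0.16, limma adjusted p = 2.24e-12) and axr1 6.44-fold lower (log2 -2.56, SE 0.16, limma adjusted p = 1.98e-13).

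SCPL31 read 894, 815 and 1045 in Col-0 hypocotyls, 200.4, 215 and 179 in max4, and 117, 106 and 108.5 in axr1. The 3 groups were stepped, with no overlap between any of them. Max4 was 4.63-fold lower (log2 -2.12, SE 0.26, limma adjusted p = 6.63e-08) and axr1 8.30-fold lower (log2 -2.88, SE 0.26, limma adjusted p = 4.29e-10).

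SCPL50 was low in Col-0 hypocotyls, at 25.3, 24.7 and 21.4, and read 106, 92.3 and 100.4 in max4 and 51.9, 47.6 and 49.5 in axr1. Again no groups overlapped. Max4 was 4.18-fold higher (log2 1.54, SE 0.10, limma adjusted p = 3.63e-13) and axr1 2.09-fold higher (log2 0.72, SE 0.10, limma adjusted p = 2.04e-06).

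SCPL48 rose from 187, 209 and 180.2 in Col-0 to 351, 324 and 329.8 in max4 and 266, 286 and 282 in axr1, by log2 0.76 and 0.50 (limma adjusted p = 1.73e-05 and 0.00289). SCPL45 fell from 114, 107 and 104 to 49.8, 53.6 and 57.8 in max4 and 70.1, 76.9 and 69.3 in axr1, by log2 -0.83 and -0.50 (limma adjusted p = 1.11e-07 and 0.000393). For both genes every mutant array lay outside the Col-0 range.

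SCPL26 fell by 0.70 on the log2 scale in max4 and by 0.45 in axr1 (limma adjusted p = 1.05e-06 and 0.00074). SCPL25 was at 35.8 ± 1.31 in Col-0 hypocotyls, 34.9 ± 3.05 in max4 and 56.2 ± 3.29 in axr1 (SD, n = 3), and only the axr1 difference was called (limma adjusted p = 0.852 and 0.000163). SCPL29 was called as lower in max4 (log2 -0.23, limma adjusted p = 0.0467) although its groups overlapped. Without any 1 max4 array, or Col-0 replicate 1 or 2, its adjusted p lay between 0.057 and 0.326. It was also not called with no filter (0.0547) or only the arrays compared (0.0992). SCPL29 differed by log2 0.01 in axr1 (limma adjusted p = 0.922). SCPL49 and SCPL20 were called in neither mutant, at log2 -0.09 and -0.16 in max4 and -0.24 and 0.20 in axr1. Without Col-0 replicate 3 SCPL49 was called as lower in axr1 (adjusted p = 0.0195), as it was with array quality weights (0.00585).

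Tested directly, axr1 and max4 differed for 5 of 10 genes, beside 32.2% of all probe sets (16.1% in each direction). SCPL50 was 2.00-fold lower in axr1 (log2 -0.81, limma adjusted p = 3.86e-07), and SCPL25 was 1.61-fold higher (log2 0.51, limma adjusted p = 0.000109). SCPL31, SCPL45 and SCPL29 were called with limma adjusted p of 0.0265, 0.0141 and 0.0455. The SCPL29 call was lost without any 1 max4 or axr1 array (adjusted p from 0.0598 to 0.124). Without max4 replicate 1, or without axr1 replicate 2, the count fell from 5 to 2. SCPL48, SCPL30, SCPL26, SCPL20 and SCPL49 were not called, with limma adjusted p from 0.054 to 0.388.

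Markers of several cell types moved in these mutants. The summed xylem markers were 261 to 269.6 in Col-0 hypocotyls, 147 to 169 in max4 and 487 to 537 in axr1, with 1 of 3 lower in max4 and 3 of 3 higher in axr1. The summed photosynthetic markers were 548.5 to 584 in Col-0, 362.5 to 382 in max4, with 3 of 4 lower, and 725 to 791 in axr1, with 2 of 4 higher. Of the phloem markers SWEET11 and CLE41 were lower in both mutants, with summed levels of 831 to 864 in Col-0, 433 to 446 in max4 and 535 to 559 in axr1, while OPS was higher in max4. FACT was 68.2 ± 7.43 in Col-0, 94.5 ± 9.04 in max4 and 166 ± 30.6 in axr1 (SD, n = 3), higher in both. Both cambium markers were higher in max4 and PHV in axr1. The part of these markers in the SCPL differences was not tested.

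**Figure D4:**
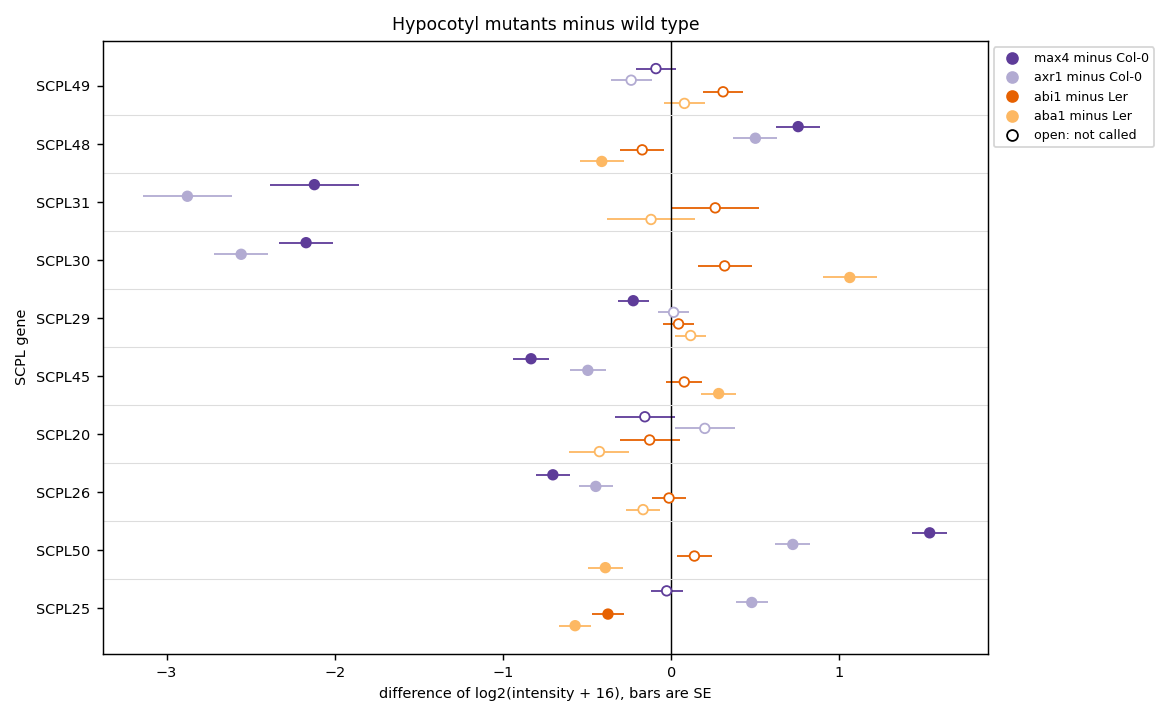
Mutant minus wild-type difference of log2(intensity + 16) in hypocotyls for each SCPL gene: max4 and axr1 against Col-0, abi1 and aba1 against Ler; bars are SE and open points did not pass an adjusted p of 0.05. SCPL30 and SCPL31 lie below -2 in max4 and axr1, while SCPL30 lies at 1.06 in aba1.

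The abscisic acid mutants were compared with Ler, whose 3 arrays serve both. In aba1 SCPL30 rose, SCPL25, SCPL50 and SCPL48 fell, and SCPL45 was called as higher. These 5 calls, 2 higher and 3 lower, stand beside 27.1% of all probe sets (11.8% higher and 15.3% lower). With quantile normalization 1 was higher and 4 lower. In abi1 SCPL25 alone was called, as lower, 1 of 10 beside 10.4% of all probe sets (4.67% higher and 5.76% lower). The SCPL medians were log2 -0.14 in aba1 and 0.06 in abi1, and those of all probe sets -0.02 and -0.01.

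SCPL30 read 31.7, 22.6 and 26.7 in Ler, 31.0, 47.3 and 35.2 in abi1, and 90.9, 60.0 and 72.1 in aba1. Its aba1 arrays were above all arrays of Ler and abi1, while Ler and abi1 overlapped. In aba1 the level was 2.75-fold that of Ler (log2 1.06, SE 0.16, limma adjusted p = 6.5e-06). In abi1 the log2 difference was 0.32 (SE 0.16, limma adjusted p = 0.231).

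SCPL25 read 45.6, 47.8 and 51.2 in Ler, 35.4, 28.8 and 36.5 in abi1, and 23.7, 30.0 and 28.1 in aba1. Both mutants lay below Ler without overlap. The fall was 0.38 on the log2 scale in abi1 (limma adjusted p = 0.00844) and 0.57 in aba1 (limma adjusted p = 2.53e-05). The abi1 call was lost without Ler replicate 3 (adjusted p = 0.0504) or abi1 replicate 2 (adjusted p = 0.0832).

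SCPL50 read 49.5, 43.2 and 36.6 in Ler, 42.2, 57.8 and 47.3 in abi1, and 25.5, 34.2 and 27.4 in aba1, which was lowest without overlap (log2 -0.39 against Ler, limma adjusted p = 0.00529). SCPL48 fell in aba1 by 0.41 on the log2 scale (limma adjusted p = 0.0179), and without Ler replicate 1 or aba1 replicate 3 the adjusted p was 0.109 or 0.0746. SCPL45 in aba1, at 43.1, 63.5 and 62.5, overlapped with Ler through its first array (log2 0.28, limma adjusted p = 0.0464). That call was lost without any 1 Ler array, or aba1 replicate 2 or 3 (adjusted p from 0.0797 to 0.217). It was also lost with a pseudocount of 64, no filter, quantile normalization, scanner background or only the arrays compared (0.0598 to 0.118). Leaving out Ler replicate 1, or aba1 replicate 3, left 3 of the 5 calls. SCPL31, SCPL20, SCPL26, SCPL29 and SCPL49 were not called in either mutant (limma adjusted p from 0.103, for SCPL49, to 0.966 in abi1 and 0.0766 to 0.783 in aba1). In abi1 SCPL48, SCPL45 and SCPL50 were not called either (0.464 to 0.728). Some alternatives gained calls. SCPL20 was called as lower in aba1 with quantile normalization (adjusted p = 0.0488) and array weights (0.00609). It was also called without Ler replicate 2 (0.0172) or aba1 replicate 2 (0.00987). With array weights SCPL26 was called as lower in aba1 (0.0429) and SCPL49 as higher in abi1 (0.0221).

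Between abi1 and aba1 the difference was called for SCPL30, lower in abi1 (log2 -0.74, SE 0.16, limma adjusted p = 0.00138), and SCPL50, higher in abi1 (log2 0.53, SE 0.10, limma adjusted p = 0.000529). These are 2 of 10 genes, beside 15.4% of all probe sets (8.07% higher and 7.35% lower in abi1). The other 8 had limma adjusted p from 0.179 to 0.676. SCPL48 was called as higher in abi1 with array weights (adjusted p = 0.0485) or without abi1 replicate 2 (0.0191). SCPL45 was called as lower without aba1 replicate 1 (0.031). Of the xylem markers none of 3 was called in either mutant against Ler. Of the phloem markers SWEET11 was lower in aba1, of the cambium markers PHV was lower in aba1, and of the photosynthetic markers PSB27 was lower in each. The actin 3′ to 5′ ratio was 1.25 to 1.29 in Ler, 1.49 to 1.85 in abi1 and 1.36 to 1.45 in aba1. FACT was 110.1 ± 10.6 in abi1, 159 ± 24.1 in aba1 and 269 ± 6.31 in Ler (SD, n = 3), lower in both mutants. The part of these values in the SCPL differences was not tested.

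The wild types themselves differed for 7 of 10 genes, beside 57.8% of all probe sets called, 30.7% higher and 27.1% lower in Ler. The SCPL calls were 3 higher and 4 lower, and the median log2 difference was -0.13 over the 10 genes and 0.02 over all probe sets. SCPL30 was 33.0-fold lower in Ler than in Col-0 hypocotyls (log2 -4.40, SE 0.16, limma adjusted p = 7.52e-20), SCPL31 7.20-fold lower and SCPL45 2.52-fold lower. Ler arrays of these genes were all under every Col-0 array. SCPL48 was 2.53-fold higher (log2 1.26, limma adjusted p = 1.14e-09), SCPL50 1.81-fold and SCPL25 1.35-fold higher, the last not called with scanner background in the model (adjusted p = 0.0679). SCPL26 was 1.45-fold lower (log2 -0.44, limma adjusted p = 0.000422). SCPL29, SCPL20 and SCPL49 were not called, at log2 -0.09, -0.13 and -0.12 (limma adjusted p = 0.397, 0.566 and 0.396), though SCPL29 was called as lower without Col-0 replicate 3 (adjusted p = 0.0435). Scanner background was 115 to 132 on the Ler arrays and 64.6 to 89.8 on the Col-0 hypocotyl arrays, and the actin ratio 1.25 to 1.29 and 1.44 to 1.72. Differences between the accessions in the sequence under the probes were not examined. The summed xylem markers were 131 to 135 in Ler and 261 to 269.6 in Col-0, with 3 of 3 lower in Ler. FACT was higher in Ler, at 269 ± 6.31 against 68.2 ± 7.43 (SD, n = 3). Of the phloem markers SWEET11 was higher (log2 0.70) and CLE41 and CLE44 lower (-1.32 and -0.76), with summed levels of 464 to 637.5 in Ler and 831 to 864 in Col-0. PHV was higher and LHCB4.2 lower. The part of these values in the SCPL differences was not tested.

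How far the 10 genes moved alike was described by Pearson's r of the 12 group means on the log2 scale. The points share wild types and scaling, and no test is given. Over 45 pairs of genes the median r was 0.12, and 4 pairs exceeded 0.7. SCPL29 and SCPL45 were most alike at 0.86, SCPL30 and SCPL31 reached 0.81, SCPL30 and SCPL45 0.76, and SCPL25 and SCPL29 0.74. SCPL26 was the least like member for 7 of the other 9 genes, with its lowest r, -0.62, against SCPL25. SCPL20 was like none of them, its highest r being 0.26, with SCPL25.

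**Figure D5:**
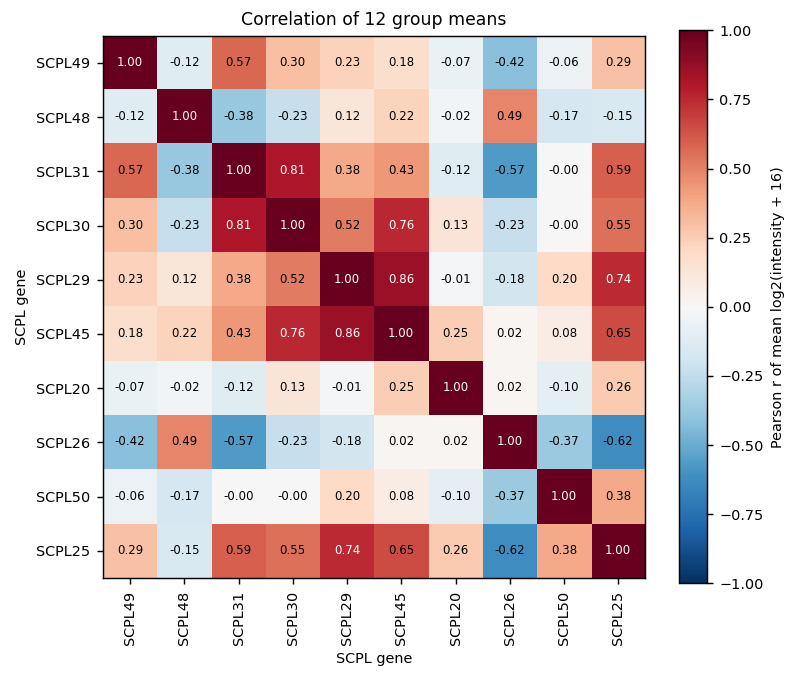
Pearson's r between the 10 SCPL genes over the 12 group means of log2(intensity + 16); red is positive and blue is negative. The block of SCPL30, SCPL29, SCPL45 and SCPL25 is red, and the SCPL26 row is mostly blue.

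Among all other tested probe sets with 1 gene, the 3 whose group means followed SCPL45 most closely were AT5G27490 (r = 0.952), AT1G09390 (r = 0.952) and TET7, a tetraspanin gene (r = 0.943). TET7 averaged 20.5 ± 1.29 in Col-0 xylem and 87.2 ± 12.8 in MYB50 knockout xylem (SD, n = 3). AT5G27490 averaged 49.4 ± 8.37 and 102 ± 10.5 in the same groups. These genes were picked for their likeness, so the values are a description.

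Of the other 19 SCPL probe sets, 12 did not pass the filter and were not tested, and 7 did. Among these 7, SCPL44, SCPL43 and SCPL33 were called in neither tissue of the MYB50 knockout (limma adjusted p from 0.283 to 0.558). SCPL35 and SCPL27 were lower in xylem than in cork of Col-0 (log2 -1.13 and -0.69, limma adjusted p = 7.19e-09 and 0.00115), with Col-0 xylem means of 8.00 and 14.5 that lay under 16, and rose in both tissues of the MYB50 knockout. SCPL35 averaged 36.5 in Col-0 cork and 159 in knockout cork (log2 1.73, SE 0.13, limma adjusted p = 1.64e-12), and its effect was smaller in xylem (difference of log2 effects -0.75, limma adjusted p = 0.00294). SCPL27 rose by log2 0.72 in xylem and 0.79 in cork (limma adjusted p = 0.000678 and 0.00027). In that knockout 20.4% of all probe sets were called higher in xylem and 21.3% in cork. In max4 hypocotyls SCPL35 averaged 23.2 against 73.9 in Col-0 and 71.9 in axr1. SCPL46 and SCPL42 had means just above the filter of 14.69, at 15.2 and 14.8, and over the 30 arrays outside the MYB50 knockout their means were 9.80 and 13.8, so only their levels are given. SCPL46 averaged 6.67 in Col-0 xylem, was also under 16 in the mean of Col-0 cork, and averaged 35.1 and 49.9 in these tissues of the knockout. SCPL42 averaged 5.40 and 12.6 in Col-0 and 11.7 and 26.9 in the knockout.

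Genes around the family were read from lists. Of 17 genes of sinapate and acyl-sugar metabolism 3 were tested: UGT84A3 and UGT84A4, which make glucose esters of the kind that acyltransferases of this family use, and REF1, an aldehyde dehydrogenase that makes ferulate and sinapate. All 3 were lower in xylem than in cork in Col-0 (UGT84A3 log2 -2.48, REF1 -1.71, UGT84A4 -0.47). In MYB50 knockout xylem REF1 rose (log2 0.46, limma adjusted p = 0.000107) and UGT84A3 fell (log2 -0.78, limma adjusted p = 0.00012), and in its cork UGT84A3 alone was called, as lower (log2 -0.99). MYB61 knockout cork had UGT84A3 and REF1 lower (log2 -0.51 and -0.37), and its xylem had none of 3 called. REF1 rose in max4 and axr1 (log2 0.99 and 0.75), and UGT84A3 rose in axr1 (0.77). UGT84A4 fell in abi1 and aba1 (log2 -0.42 and -0.40), and UGT84A3 fell in aba1 (-0.93). In Ler UGT84A3 and REF1 were higher than in Col-0.

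Of 10 brassinosteroid receptor and signalling genes only BRL1, a receptor of the BRI1 family, was tested. BRL1 was higher in xylem than in cork of Col-0 (log2 0.35, limma adjusted p = 0.00287), in max4 (0.81) and axr1 (0.38) than in Col-0, and in Ler than in Col-0 (1.36). It was called in neither knockout and in neither abscisic acid mutant.

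Other hydrolases of the vacuole were represented by 4 of 10 genes: the vacuolar processing enzymes ALPHA-VPE, BETA-VPE and GAMMA-VPE and the aspartic protease APA1. In Col-0 BETA-VPE and APA1 were lower in xylem (log2 -0.63 and -0.25). The MYB50 knockout had these 2 lower in xylem (log2 -0.46 and -0.26) and, with GAMMA-VPE, 3 lower in cork (-0.77, -0.44 and -0.73). None of the 4 rose in either tissue. MYB61 knockout cork had GAMMA-VPE and APA1 lower (log2 -0.44 and -0.42). BETA-VPE fell in aba1 (log2 -1.19) and axr1 (-0.78) and was lower in Ler than in Col-0 (-1.59). GAMMA-VPE rose in max4 and axr1 (log2 0.44 and 0.65), and APA1 fell in both (-0.33 and -0.32).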

How the data were processed

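Total RNA was hybridised to 36 ATH1 arrays, 1 per pooled sample. The deposited table holds linear intensities per probe set. Their 2% trimmed mean was 100 on every array, so the authors had scaled them. How the probes were summarised was not stated in the labels. Gene names came from the platform annotation, in which 13513 probe sets name 1 gene and 503 several, and from RefSeq (TAIR10.1).

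Groups were taken from the labels' organism part, ecotype and line. Probe sets with a mean under 14.69, the 30th percentile, were left out, as were 64 controls, which left 15924. Values were tested as log2(intensity + 16) in 1 limma 3.58.1 fit over the 12 groups (R 4.3.3; residual df 24), with Benjamini-Hochberg adjustment over all of them. Tables and figures used Python 3.11.15, and the fit was tested on simulated data. All 10 SCPL genes are described in every comparison, and the other tested ones mainly by their MYB50 result. The members, lists and tests were chosen with earlier results of these data known. The labels do not say whether replicates came from separate plantings, so p-values measure only the spread between these samples, which may be technical, and the number of arrays limits the precision.

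Replicate numbers were tested for pairing: same-numbered arrays had correlations of deviations from -0.156 to 0.327 over 14 pairs of groups, and in no pair of groups were all over 0.1. Alternatives were other pseudocounts (1 and 64), no filter or the 50th percentile, quantile normalization, array weights, scanner background as a covariate, a replicate block, only the arrays compared, and leaving out each array.

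Marker lists gave, for xylem minus cork in the mean over genotypes, 3 of 3 xylem markers higher, 4 of 4 phloem, 4 of 4 photosynthetic and 1 of 1 suberin markers lower, and of 2 cambium markers 1 higher and 1 lower.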

Additional observations from a re-analysis of the deposited data

Results flagged for a closer look

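The MYB50 knockout changed 5 of the 10 SCPL genes by unequal amounts in xylem and cork, by limma's test of the difference of effects, beside 18.2% of all probe sets. The differences of log2 effects, xylem minus cork, were 2.07 for SCPL48, 1.65 for SCPL30, 1.55 for SCPL20 and 1.01 for SCPL45. For SCPL50 the difference was -1.40, with the rise in cork. None of these 5 calls was lost without any 1 array, where the count stayed at 5.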

How the results depend on the processing

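Over 2540 SCPL gene results and alternatives, 2452 kept their call or stayed uncalled, 62 lost a call and 26 gained one. No result called in either fit changed direction, and direction was not compared where neither fit made a call. In MYB61 knockout cork the count of 2 SCPL genes became 1 with a pseudocount of 64, with array weights, with scanner background, with only the arrays compared, and without both doubted cork arrays (chosen after seeing the data). For abi1 the count of 1 became 2 with array weights and 0 with only the arrays compared, and for axr1 against max4 the count of 5 became 9 and 8. Leaving out 1 array at a time gave 0 to 1 SCPL genes in MYB61 knockout xylem, 1 to 2 in its cork, 0 to 1 in abi1, 3 to 5 in aba1 and 2 to 4 in axr1 against max4. The replicate block, over numbers that did not pair the arrays, left every count as it was, with 7 SCPL genes in MYB50 knockout xylem, 7 in its cork and 9 for tissue. Over all probe sets the MYB61 xylem count of 299 became 39 with only the arrays compared. The MYB61 cork count of 1274 became 230 with only those arrays and 489 with scanner background. The count of 18 for the MYB61 tissue difference ranged from 3 to 200. The abi1 count of 1661 became 3219 with array weights and 1018 with only the arrays compared, and the aba1 count of 4317 became 6892 with array weights. The causes were not tested. Signals under 16 lie near the background, which limits SCPL31 in cork.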
